A study of Mus musculus with 24 samples.

Results

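The 9 genes described here encode Toll-like receptors of the mouse: Tlr1, Tlr2, Tlr4 and Tlr6, which sit at the cell surface, and Tlr3, Tlr7, Tlr8, Tlr9 and Tlr13, which work in endosomes. They were chosen by symbol from a table of 54838 genes, with earlier results of these data known. All 9 passed the low-count filter that left 13116 genes for testing. The RNA, enriched for poly-A, came from the mouse microglial line SIM-A9 and was sequenced after 2 h in 8 groups of 3 libraries. Cells labelled control were the reference. The treatments were LPS (bacterial lipopolysaccharide, the study's positive control for inflammation), (GT)6 SWCNT (single-walled carbon nanotubes whose label names a short DNA repeat), COOH SWCNT (carboxylated nanotubes), Fura-2 (a calcium indicator), a pair of dyes labelled DiBASC2 and Di-2-ANEPEQ, and AAV (adeno-associated virus). Every group, the control included, shared the same cell line, the change to serum-free medium 2 h earlier and growth in multiwell plates. All groups, again with the control, are also recorded with 30 microlitres added to 270 microlitres of medium. Doses, the AAV serotype and its cargo are not given in the sources used here, so comparisons between treatments are matched for time and not shown to be matched for dose.

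Toll-like receptors are membrane proteins that bind molecules typical of microbes through leucine-rich repeats and pass the signal inward through a TIR domain. Most use the adaptor MyD88, Tlr3 uses TRIF, and Tlr4 uses both; the pathways end in NF-kappa-B, MAP kinases and interferon regulatory factors. In the brain, microglia are the cells best known for carrying a broad set of these receptors. Tlr2 binds bacterial lipoproteins as a pair with Tlr1 or Tlr6, Tlr4 binds lipopolysaccharide together with MD-2, Tlr3 binds double-stranded RNA, Tlr7 and Tlr8 belong to the group that senses single-stranded RNA, Tlr9 binds unmethylated CpG DNA, and Tlr13 binds a stretch of bacterial ribosomal RNA.

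The labelled cell type was checked first. Of 14 genes typical of microglia and macrophages, 13 were above 1 CPM (counts per library size, with sizes scaled by TMM factors) in every group, and their summed level lay between 2390 and 2647 CPM over all libraries. Sall1, a transcription factor of brain-resident microglia, was the exception, with at most 2 counts in a library. The lowest of the 13 in control were P2ry12, Tmem119 and Aif1, at means of 2.35, 4.13 and 4.45 CPM. Cd68 at 817 and Csf1r at 507 CPM weighed most in the sum. The list joins microglia with macrophages and was not used to tell them apart. Among 28 markers of astrocytes, neurons, oligodendrocytes, fibroblasts, endothelium, lymphocytes, neutrophils and plasmacytoid dendritic cells, Mbp alone was above 1 CPM in any group. Its mean in control was 4.13 CPM, at the level of Tmem119. Total counts ran from 17364272 to 29259221 per library. The replicate pairs that differed most were LPS 1 and 3, with a chi-square of 20.5 per degree of freedom over genes, and DiBASC2 1 with either of its partners, at 15.1 and 15.6; the smallest value of any pair was 2.52. The labels do not say that replicates came from separate cultures, so p-values measure the spread between these libraries, which may be technical.

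In the control cells, the receptors spanned 472-fold in level per exon length. Tlr2 was highest, with 91.9 ± 0.995 CPM per kb of exon (SD, n = 3), followed by Tlr13 at 31.4 ± 0.465 and Tlr7 at 29.7 ± 0.534. Tlr4 at 7.50 ± 0.185, Tlr1 at 6.87 ± 0.406 and Tlr9 at 5.84 ± 0.675 CPM per kb lay near the median of all genes tested, which was 5.59. Tlr6 stood at 2.08 ± 0.235 CPM per kb, and Tlr3 at 0.207 ± 0.0315 and Tlr8 at 0.195 ± 0.0556 were at the bottom. Neighbours in this order had separate ranges over the 3 libraries, except for Tlr4 with Tlr1 and Tlr3 with Tlr8, whose libraries overlapped. The order was the same for all 9 genes with the length of the longest transcript and with CPM not divided by length. Of the other mouse receptors, Tlr5 had 8.19, 9.83 and 10.4 CPM in control, Tlr11 had 0 counts in all 24 libraries, and Tlr12 had at most 4 counts in a library.

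**Figure D1:**
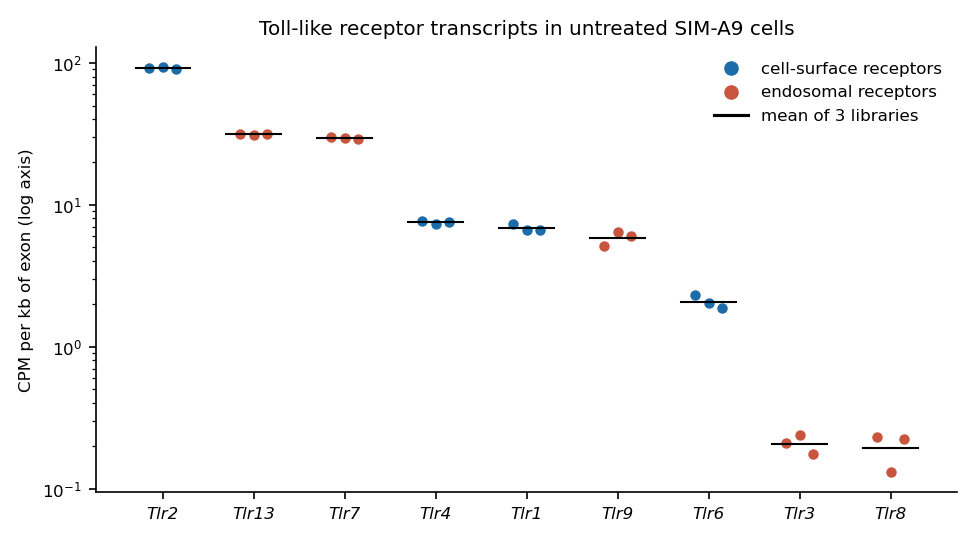
Level of each receptor gene in the 3 control libraries, in CPM per kb of exon on a log axis; points are libraries, bars are means, and colour separates surface from endosomal receptors. Tlr2 lies at 91.9 and Tlr8 at 0.195 CPM per kb, with Tlr13 and Tlr7 close together near 30.

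By identifier and position (GENCODE M21 on GRCm38, all protein-coding), the surface receptor genes were Tlr1 (ENSMUSG00000044827.10, chr5:64924679-64933563, minus strand), Tlr6 (ENSMUSG00000051498.6, chr5:64952031-64960097, minus), Tlr2 (ENSMUSG00000027995.10, chr3:83836272-83841767, minus) and Tlr4 (ENSMUSG00000039005.13, chr4:66827584-66930284, plus). The endosomal receptor genes were Tlr3 (ENSMUSG00000031639.12, chr8:45395665-45411080, minus), Tlr7 (ENSMUSG00000044583.13, chrX:167304929-167330558, minus), Tlr8 (ENSMUSG00000040522.5, chrX:167242696-167264329, minus), Tlr9 (ENSMUSG00000045322.10, chr9:106222598-106226883, plus) and Tlr13 (ENSMUSG00000033777.4, chrX:106143204-106160493, plus). Tlr1 and Tlr6 are neighbours and near copies in part: 15.3% of the 50-base stretches of the longest Tlr1 transcript occurred unchanged in that of Tlr6, and no other pair of the 9 genes shared a stretch. Reads from those stretches may be split between both genes, so their values are uncertain to that extent. Tlr3 shared 381 exon bases with the antisense gene Gm45542 on the other strand, and since strand use in counting is not given in the sources used here, its low counts could include reads of that gene.

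RefSeq start-site windows (GRCm38.p6) were matched for 7 of the 9 genes, and the 250 bases before each start were searched on both strands for the kappa-B consensus of NF-kappa-B, the core letters GAGGAA of PU.1 (the myeloid transcription factor encoded by Spi1) and a pair of interferon-response half-sites, each GAAA, on the same strand with any 2 bases between them. Of 32851 such windows of all genes, 7.25% held the first, 23.3% the second and 2.98% the third. Tlr4 and Tlr7 had no window. The windows of 3 of the receptors called in some treatment are shown, with the matches in capitals. Against control, Tlr2 rose with LPS and COOH SWCNT and fell with DiBASC2. Tlr13 fell with LPS and (GT)6 SWCNT, and Tlr9 fell with (GT)6 SWCNT alone. Whether a motif goes with a direction of change was not tested. Each run is the part outside annotated exons, 5′ to 3′ on the gene's strand. Tlr2 is chr3:83841768-83841858 (minus strand) and its capitals are overlapping kappa-B matches, Tlr13 is chrX:106143025-106143203 (plus) and Tlr9 is chr9:106222348-106222597 (plus), both with a PU.1 core.
Tlr2: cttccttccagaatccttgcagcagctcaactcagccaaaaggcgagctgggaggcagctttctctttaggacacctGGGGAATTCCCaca
Tlr13: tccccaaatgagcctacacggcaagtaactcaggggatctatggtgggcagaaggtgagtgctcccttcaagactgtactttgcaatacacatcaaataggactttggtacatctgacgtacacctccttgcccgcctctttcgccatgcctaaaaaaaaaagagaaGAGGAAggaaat
Tlr9: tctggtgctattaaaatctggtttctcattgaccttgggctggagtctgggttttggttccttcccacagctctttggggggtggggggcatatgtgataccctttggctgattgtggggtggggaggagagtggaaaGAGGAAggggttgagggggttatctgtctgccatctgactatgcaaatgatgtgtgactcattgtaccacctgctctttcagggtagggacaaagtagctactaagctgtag
The kappa-B letters were also found in the window of Tlr3, there inside an annotated exon, and the interferon-response pair in a window of Tlr6. PU.1 cores were also found in the windows of Tlr8 and Tlr1. Tlr8 was called lower with LPS and (GT)6 SWCNT, and Tlr1 was not called against control in any treatment. A match is a description of letters and was not tested as a binding site.

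LPS changed receptors in both directions. Of the 9 receptors 1 rose and 3 fell at an adjusted p under 0.05 (edgeR's quasi-likelihood test, Benjamini-Hochberg adjustment over all genes tested, as for every adjusted p here). Over all genes tested, 13.8% were called higher and 14.5% lower. The median log2 fold change was -0.28 over the 9 receptors and -0.0084 over all genes tested. The former is the value of Tlr6, which was not called, and Tlr1, Tlr7 and Tlr9 had 0.04, -0.06 and -0.03. In bulk RNA, fewer cells of a type and less RNA per cell cannot be told apart, here or in any comparison that follows.

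Tlr2, the lipoprotein receptor, had 276, 280 and 275 CPM in the control libraries and 773, 720 and 726 CPM with LPS. The groups lay far apart, and the log2 fold change was 1.42 ± 0.04 (SE; adjusted p = 4.56e-26), a 2.67-fold rise. Tlr4, the receptor of LPS itself, went the other way, from 42.6, 40.6 and 41.9 CPM in control to 25.97, 21.1 and 21.4 CPM. All 3 treated libraries lay below all controls, and Tlr4 fell by 0.87 on the log2 scale (SE 0.07, adjusted p = 3.06e-13), to 0.547 of its control level. Tlr13, the sensor of bacterial ribosomal RNA, had 136, 133 and 137 CPM in control and 91.1, 78.7 and 76.1 CPM with LPS, a log2 fold change of -0.72 ± 0.06 (adjusted p = 2.66e-13). LPS replicate 1 was the highest of its group for Tlr2, Tlr4 and Tlr13 alike, and across 15 alternative settings, those that leave out 1 library included, the values stayed between 1.38 and 1.44, between -0.96 and -0.81, and between -0.79 and -0.66.

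Tlr8 was close to the detection limit. It had 15, 11 and 15 counts in the control libraries and 3, 1 and 7 with LPS, without overlap in CPM, and its log2 fold change was -1.88 ± 0.53 (adjusted p = 0.00635). The call rests in part on 1 library: without LPS replicate 2, which held the single count, the log2 fold change was -1.42 and the adjusted p 0.0618, the highest of 13 alternatives. A filter at a mean of 50 counts removed this gene from testing, and so did a fit of only the 2 groups. It passed the low-count filter only with the other groups included.

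The remaining receptors were not called with LPS. Tlr1 and Tlr6, the partners of Tlr2, had log2 fold changes of 0.04 (95% interval -0.12 to 0.20) and -0.28 (-0.55 to -0.01, adjusted p = 0.116). Tlr6 libraries lay at 6.74, 6.20 and 6.17 CPM with LPS and at 8.68, 7.62 and 6.94 CPM in control, so the groups were apart while the adjusted test was not passed. Tlr7 and Tlr9 had intervals of -0.17 to 0.04 and -0.21 to 0.15. Tlr3 counts, from 14 to 17 with LPS and from 17 to 29 in control, left an interval of -1.32 to 0.36, which holds both no change and a fall of 2-fold. With each library's trend over gene length and GC content removed, Tlr7 was called lower with LPS at a log2 fold change of -0.14 (adjusted p = 0.0175, against up to 0.898 in the other alternatives).

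**Figure D2:**
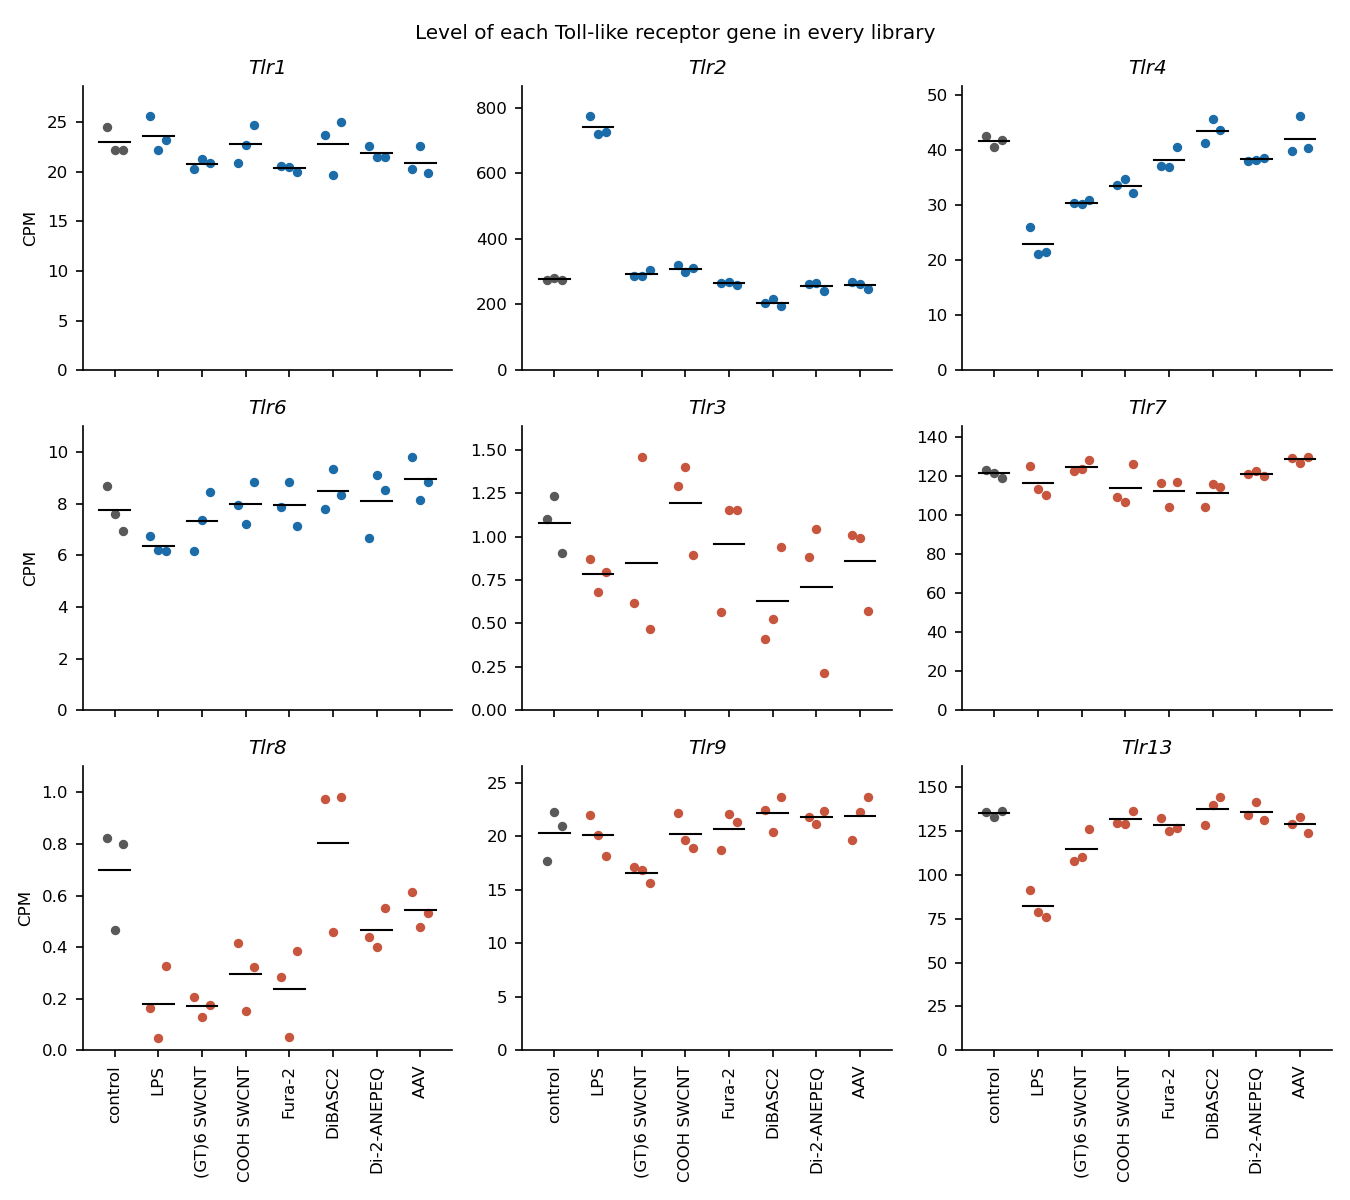
CPM of each receptor gene in every library of the 8 groups, with a panel per gene and its own vertical axis from 0; points are libraries and bars are means of 3. Tlr2 stands near 740 CPM with LPS against 277 in control, and Tlr4 and Tlr13 are lowest with LPS.

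(GT)6 SWCNT lowered 4 receptors and raised none that passed the test. The background was 9.90% of all genes tested higher and 10.5% lower. With no adjustment, at a p under 0.05, edgeR gave 0 receptors higher and 4 lower, beside 4012 of the 13116 genes tested in either direction. DESeq2 gave 0 higher and 3 lower at its adjusted threshold, since it set no adjusted p for Tlr8. The median over the 9 receptors was -0.24, the value of Tlr13, against -0.017 over all genes tested.

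Tlr4 had 30.4, 30.1 and 30.8 CPM with (GT)6 SWCNT, below every control library and above every LPS library, and fell by 0.45 on the log2 scale (SE 0.07, adjusted p = 1.02e-06). Tlr13 had 108, 110 and 126 CPM, with a log2 fold change of -0.24 ± 0.05 (adjusted p = 0.00102); the third library lay nearer to the controls than the others did. Tlr9, the CpG DNA receptor, had 17.1, 16.9 and 15.6 CPM, against 17.7, 22.3 and 20.9 in control. Its groups were separated by less than the spread of the controls, and its log2 fold change was -0.30 ± 0.09 (adjusted p = 0.0150). That call was lost without control replicate 2 (-0.20, adjusted p = 0.182), control replicate 3 (-0.26, adjusted p = 0.0800) or (GT)6 SWCNT replicate 3 (-0.25, adjusted p = 0.0717), among adjusted p-values of 0.00486 to 0.182 over 15 alternatives. Tlr8 had 5, 3 and 3 counts and a log2 fold change of -1.97 ± 0.53 (adjusted p = 0.00589). It was called in all 12 alternatives that gave it an adjusted p. These are the settings that kept the gene. DESeq2, a filter at a mean of 50 counts and a fit of only the 2 groups gave it no adjusted p.

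Tlr2 had 286, 286 and 305 CPM with (GT)6 SWCNT, all above the controls, with a log2 fold change of 0.08 (95% interval -0.01 to 0.16, adjusted p = 0.221) that did not pass. Tlr1, Tlr6, Tlr7 and Tlr3 had values of -0.14, -0.10, 0.04 and -0.32 and were not called. Their intervals were -0.30 to 0.02, -0.36 to 0.16, -0.07 to 0.15 and -1.13 to 0.50.

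COOH SWCNT changed 2 receptors, Tlr2 upward and Tlr4 downward. Over all genes tested, 9.39% were called higher and 10.6% lower. Tlr2 had 319, 298 and 311 CPM, all above the controls, a log2 fold change of 0.16 ± 0.04 (adjusted p = 0.00557). Tlr4 had 33.7, 34.7 and 32.1 CPM, all below the controls, and fell by 0.32 on the log2 scale (SE 0.06, adjusted p = 0.000339). Both calls held in all 15 alternatives. Tlr8 had 11, 3 and 8 counts, below the controls in CPM, and its log2 fold change of -1.14 (95% interval -2.07 to -0.20) had an adjusted p of 0.0791. Tlr13 and Tlr9, lower with the other nanotube, had 130, 129 and 136 CPM and 22.2, 19.6 and 18.9 CPM here, with intervals against control of -0.15 to 0.07 and -0.18 to 0.17. The other 4 receptors were not called, and without COOH SWCNT replicate 3 Tlr7 was called lower at -0.15 (adjusted p = 0.0386, against up to 0.639 in the other alternatives).

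The nanotubes were then compared directly, since both were set against the same 3 control libraries. Tlr13 was lower with (GT)6 than with COOH SWCNT by a log2 difference of -0.21 ± 0.05 (adjusted p = 0.00556), and Tlr9 by -0.29 ± 0.09 (adjusted p = 0.0160). These 2 of 9 receptors were called lower and none higher, beside 9.48% of all genes tested lower and 11.9% higher. At an unadjusted p under 0.05 edgeR gave 1 receptor higher and 3 lower, beside 4326 of the 13116 genes tested in either direction. DESeq2 called 1 higher, Tlr7, and 2 lower. The Tlr9 difference lost its call without (GT)6 SWCNT replicate 3 (adjusted p = 0.0693), without COOH SWCNT replicate 1 (0.159, the highest of 15 alternatives) and with the trend over gene length and GC content removed (0.0544). The Tlr13 difference lost it without (GT)6 SWCNT replicate 1 (adjusted p = 0.0714, the highest of 15 alternatives). Tlr7, at 0.13 and an adjusted p of 0.0770, was called higher in 5 of 15 alternatives: without COOH SWCNT replicate 3 (0.21, adjusted p = 0.00403, of a range up to 0.261), with no low-count filter, with DESeq2, and with the trend over gene length and GC content removed, with or without the replicate block. For Tlr4 the difference was -0.14 (95% interval -0.27 to -0.00, adjusted p = 0.136), and for Tlr2 -0.08 (-0.17 to 0.00, adjusted p = 0.167), so no difference between the nanotubes was shown for either.

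Set against LPS, both nanotubes left Tlr2 lower and Tlr4 and Tlr13 higher. With (GT)6 SWCNT the log2 differences were -1.34 for Tlr2, 0.42 for Tlr4 and 0.48 for Tlr13, with adjusted p-values of 4.65e-25, 1.36e-05 and 1.30e-08. In that comparison 9.63% of all genes tested were higher and 11.9% lower. With COOH SWCNT they were -1.26, 0.55 and 0.69, with adjusted p-values of 2.40e-24, 2.60e-08 and 1.16e-12. There, 18.1% of all genes tested were higher and 19.7% lower. Each comparison had a further call. Tlr9 was lower with (GT)6 SWCNT than with LPS by -0.27 (adjusted p = 0.0269), a call lost in 5 of 15 alternatives: without LPS replicate 1 (-0.20, adjusted p = 0.158), LPS replicate 2, (GT)6 SWCNT replicate 2 or (GT)6 SWCNT replicate 3, and with upper-quartile factors. Tlr6 was higher with COOH SWCNT than with LPS by 0.34 (adjusted p = 0.0367), lost without COOH SWCNT replicate 3 (0.27, adjusted p = 0.156), COOH SWCNT replicate 1, LPS replicate 2 or LPS replicate 3. Tlr7 was also called in 3 of the 15 alternatives of (GT)6 SWCNT against LPS, among them without LPS replicate 1 (0.16, adjusted p = 0.0349, of a range from 0.00399 to 0.483).

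Among the dyes and AAV, 1 receptor in 1 treatment was called. DiBASC2 lowered Tlr2 to 205, 215 and 195 CPM, below every control library. It fell by 0.43 on the log2 scale (SE 0.04, adjusted p = 6.17e-09), to 0.741 of its control level, and was called in all 15 alternatives. No receptor was called higher with DiBASC2 by edgeR or DESeq2, and none was higher at an unadjusted p under 0.05. The background was 1.82% of all genes tested called higher and 3.64% lower. Tlr4 had 41.3, 45.6 and 43.6 CPM and Tlr13 128, 140 and 145 CPM, both overlapping the controls, with intervals of -0.06 to 0.19 and -0.08 to 0.13. Tlr7 had 104, 116 and 114 CPM, below its control libraries at 123, 121 and 119, and its log2 fold change of -0.12 had an adjusted p of 0.190; with the trend over gene length and GC content removed it was called at -0.16 (adjusted p = 0.0270, of a range from 0.0270 to 0.493).

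Fura-2, Di-2-ANEPEQ and AAV gave no called receptor by edgeR or by DESeq2. At an unadjusted p under 0.05 the numbers were 2, 1 and 1 of 9, all lower. At that unadjusted threshold, the numbers over the 13116 genes tested were 1411, 2161 and 2720, in either direction. At the adjusted threshold, 0.252% of all genes tested were called with Fura-2, 3.08% with Di-2-ANEPEQ and 5.00% with AAV. Tlr8 had 7, 1 and 10 counts with Fura-2, below the controls in CPM, with a log2 fold change of -1.42 (95% interval -2.39 to -0.44) and an adjusted p of 0.234. Tlr2 had 262, 266 and 241 CPM with Di-2-ANEPEQ and 270, 263 and 248 CPM with AAV, all below the lowest control library. Its log2 fold changes were -0.11 (interval -0.20 to -0.03, adjusted p = 0.150) and -0.09 (-0.17 to -0.00, adjusted p = 0.219). In a fit of the Di-2-ANEPEQ and control libraries alone the former was called (adjusted p = 0.0436, against up to 0.561 in the other alternatives). Other uncalled receptors also lay below every control library: Tlr1, Tlr2, Tlr7 and Tlr13 with Fura-2, and Tlr4 with Fura-2 and Di-2-ANEPEQ. For Tlr4 the log2 fold changes were -0.12 and -0.12 (adjusted p = 0.476 and 0.324). Tlr7 with AAV lay above every control library (0.08, adjusted p = 0.370). For Tlr9 with AAV, a virus with a DNA genome, the libraries at 19.7, 22.2 and 23.7 CPM overlapped the controls and the interval was -0.07 to 0.27.

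Between the dyes, Tlr2 was lower with DiBASC2 than with Di-2-ANEPEQ by -0.32 ± 0.04 (adjusted p = 2.17e-06), in all 15 alternatives. Tlr4 was higher by 0.19 ± 0.06 (adjusted p = 0.0465), and this call was kept in 5 of 15 alternatives. It was lost without DiBASC2 replicate 2 (0.15, adjusted p = 0.202) or replicate 3 (0.19, adjusted p = 0.0704), and without any 1 of the Di-2-ANEPEQ replicates (adjusted p from 0.0848 to 0.119). The call was also lost with DESeq2 size factors, with no low-count filter, with the replicate block, and with the trend over gene length and GC content removed (0.10, adjusted p = 0.332). That last setting gave a call to Tlr7 instead, lower with DiBASC2 by -0.21 (adjusted p = 0.00116, of a range from 0.00116 to 0.501), where the value without it was -0.12 (adjusted p = 0.146). Over all genes tested 3.47% were called higher and 5.48% lower.

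**Figure D3:**
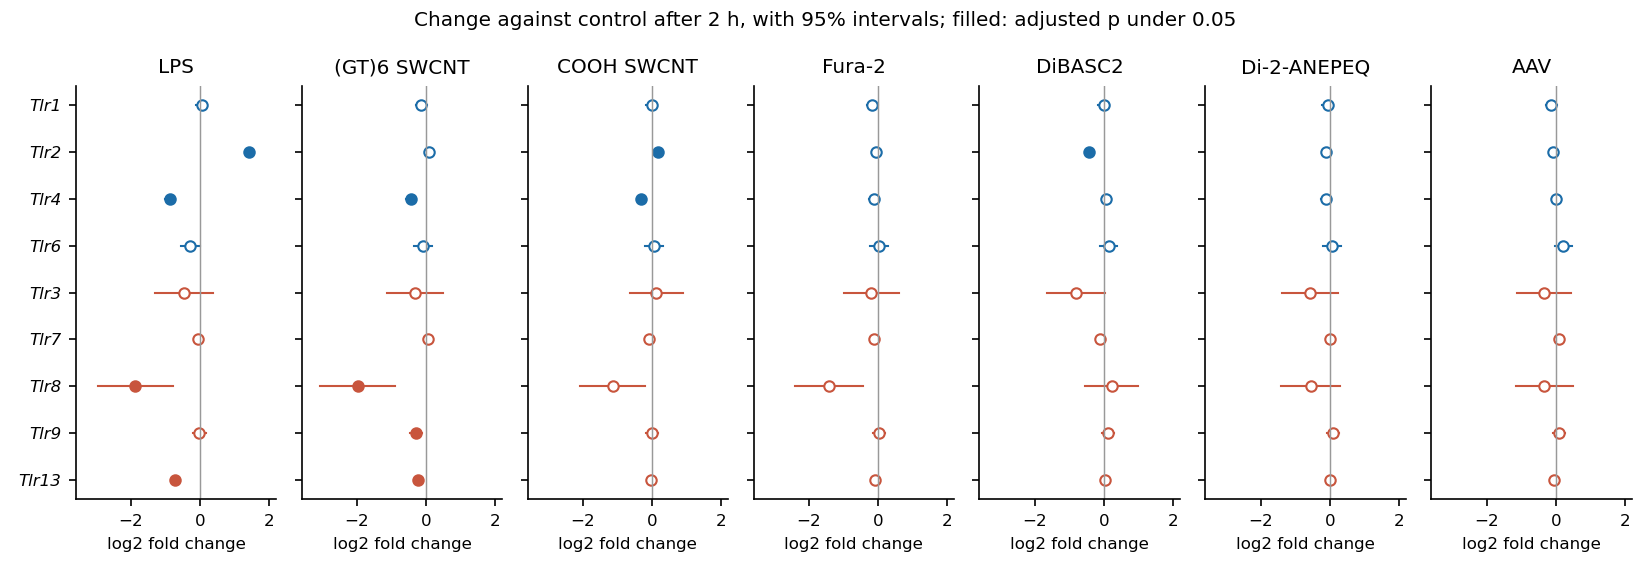
Log2 fold change of each receptor gene against control in the 7 treatments, with 95% intervals; filled points passed an adjusted p of 0.05 and colour separates surface from endosomal receptors. Tlr2 lies at 1.42 with LPS and at -0.43 with DiBASC2, Tlr4 is filled with LPS and both nanotubes, and the wide intervals belong to Tlr3 and Tlr8.

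The weight of Tlr2 within the receptor set followed these changes. Of the summed CPM per kb of the 9 genes, Tlr2 held 52.3% ± 0.388 (SD, n = 3) in control, 78.7% ± 0.714 with LPS and 45.1% ± 1.99 with DiBASC2. The nanotube groups stood at 56.2% ± 0.264 and 56.3% ± 1.20, and Fura-2, Di-2-ANEPEQ and AAV at 52.8%, 50.5% and 50.6%. The summed level itself was 176 ± 1.09 CPM per kb in control, 312 ± 14.9 with LPS and 151 ± 4.03 with DiBASC2. The 4 surface receptors together held 61.7% in control and 82.9% with LPS. That rise lay in Tlr2 and was not shared by the class. Tlr1, Tlr4 and Tlr6 had 6.87, 7.50 and 2.08 CPM per kb in control and 7.07, 4.11 and 1.71 with LPS. Tlr7 was the second receptor by level with LPS, at 28.4 CPM per kb, above Tlr13 at 19.0, and Tlr4 came sixth at 4.11, below Tlr1 at 7.07 and Tlr9 at 5.77. Tlr7 was also above Tlr13 with (GT)6 SWCNT (30.5 against 26.6) and with AAV (31.4 against 29.9), and Tlr4 was also below Tlr1 with both nanotubes.

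**Figure D4:**
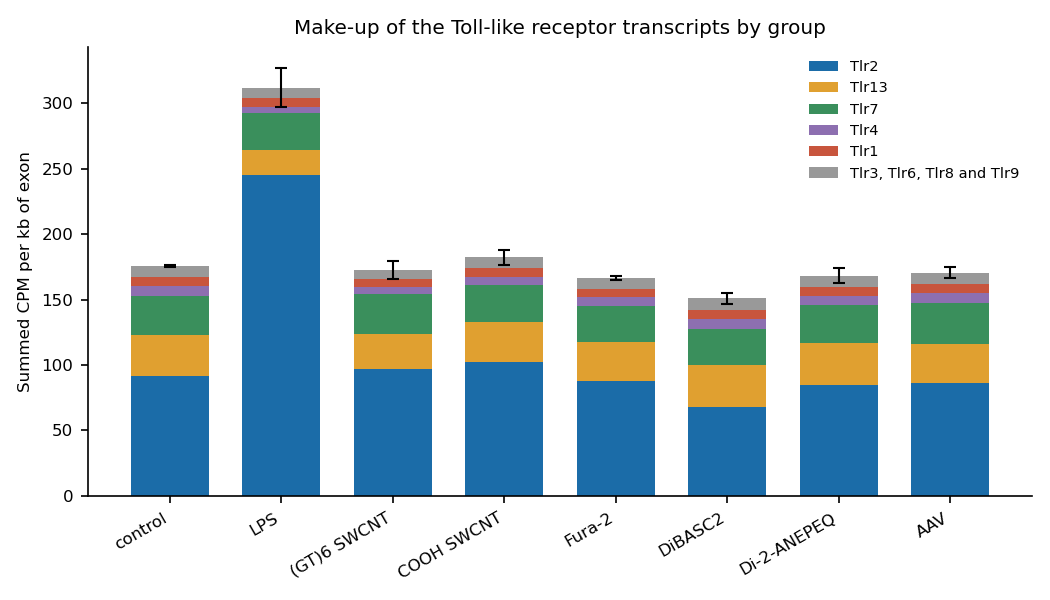
Summed level of the 9 receptor genes in each group, in CPM per kb of exon, stacked by gene; bars are means of 3 libraries and the error bars are the SD of the sum. The LPS bar reaches 312 with Tlr2 at 246, the control bar 176 and the DiBASC2 bar 151.

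The genes that serve the receptors were described from 4 lists of 45 genes, of which 42 were tested. These lists, like the receptors, were chosen with earlier results of these data known. With LPS 13 of 42 rose and 2 fell, beside 13.8% and 14.5% of all genes tested. With (GT)6 SWCNT 10 rose and 3 fell, beside 9.90% and 10.5%, and with COOH SWCNT 10 rose and 2 fell, beside 9.39% and 10.6%. With DiBASC2 0 rose and 4 fell, beside 1.82% and 3.64% (edgeR; 1 higher at an unadjusted p under 0.05, and 1 higher by DESeq2). With Di-2-ANEPEQ 1 rose and 2 fell, beside 3.08% called in either direction, and with AAV 1 rose and 1 fell, beside 5.00%. With Fura-2, where 0.252% of all genes were called, none was called by edgeR and DESeq2 called 1, a co-receptor, lower. At an unadjusted p under 0.05 edgeR gave 5 of the 42 with Fura-2, beside 1411 of the 13116 genes tested. The median log2 fold change of the 42 genes was 0.03 with LPS and 0.02 and 0.03 with the nanotubes, and the called members with LPS ran from -0.46 to 3.19.

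Among 5 tested surface co-receptors, Cd14, which hands lipopolysaccharide to Tlr4, was called in 4 treatments. It rose by 1.51 ± 0.04 on the log2 scale with LPS (adjusted p = 2.77e-26), 0.52 ± 0.04 with (GT)6 SWCNT (5.80e-12) and 0.33 ± 0.04 with COOH SWCNT (5.96e-07), and fell by 0.21 with DiBASC2 (0.00247). Cd180, a Toll-like receptor homologue of B cells and macrophages, rose by 0.20 with (GT)6 SWCNT (adjusted p = 0.000323) and by 0.18 with COOH SWCNT (0.00150), and its partner Ly86 (MD-1) had log2 fold changes of -0.20 with COOH SWCNT, -0.24 with Di-2-ANEPEQ and -0.21 with AAV, each called. Cd180 shares exon bases with Mast4 on the other strand.

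The 11 tested genes of trafficking and processing, which bring endosomal receptors to their compartment and trim their ectodomains or ligands, included 1 that fell with LPS (14.5% of all genes tested did), 2 that rose and 1 that fell with (GT)6 SWCNT (9.90% and 10.5%), and 1 that rose and 1 that fell with COOH SWCNT (9.39% and 10.6%). Pld4, an endosomal nuclease, had log2 fold changes of -0.14 with LPS and -0.12 with (GT)6 SWCNT (adjusted p = 0.00366 and 0.0192), and Pld3, of the same family, 0.18 with each nanotube (0.0355 and 0.0312). Ctss, a lysosomal cathepsin, had -0.12 with COOH SWCNT (adjusted p = 0.0335). Unc93b1, the chaperone of the endosomal receptors, was not called against control in any treatment, and was lower with (GT)6 than with COOH SWCNT by -0.12 (adjusted p = 0.0123). Tmed7 had -0.17 with Di-2-ANEPEQ (adjusted p = 0.0228) and shares 838 exon bases with Ticam2 on the same strand, so the 2 genes cannot be told apart there.

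Of 17 adaptors and proximal kinases, 8 rose and 1 fell with LPS, where 13.8% and 14.5% of all genes tested did. With (GT)6 SWCNT 4 rose and 1 fell, beside 9.90% and 10.5%. With COOH SWCNT 5 rose and 0 fell, beside 9.39% and 10.6% (0 lower also at an unadjusted p under 0.05 and by DESeq2). The highest with LPS was Ikbke, a kinase of the interferon branch, at 1.92 ± 0.06 (adjusted p = 9.28e-25), and the lowest was Tab1, a partner of the kinase TAK1, at -0.46 ± 0.06 (8.63e-08). Ikbke overlaps antisense genes on the other strand. Ticam1, which encodes TRIF, was the highest with both nanotubes, at 0.98 ± 0.08 with (GT)6 SWCNT (adjusted p = 2.07e-12) and 0.51 ± 0.08 with COOH SWCNT (9.76e-06), and the nanotubes differed by 0.46 (1.60e-05). Irak2, a kinase that acts with MyD88, was the called member with DiBASC2, at -0.22 ± 0.05 (adjusted p = 0.00145); it overlaps Gm43963 on the other strand.

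Of 9 brakes on signalling, 4 rose with LPS, beside 13.8% of all genes tested, and 2 rose and 1 fell with (GT)6 SWCNT, beside 9.90% and 10.5%. With COOH SWCNT 2 rose, beside 9.39%, and with DiBASC2 2 fell, beside 3.64%. Tnfaip3 (A20), a ubiquitin-editing inhibitor of NF-kappa-B, had log2 fold changes of 3.19 ± 0.06 with LPS, 0.68 ± 0.06 with (GT)6 SWCNT, 0.69 ± 0.06 with COOH SWCNT and -0.34 ± 0.07 with DiBASC2, the last at an adjusted p of 0.000852. Tollip, which binds IRAK kinases, rose by 0.20 with LPS, 0.32 with (GT)6 SWCNT and 0.16 with COOH SWCNT and fell by 0.18 with DiBASC2. Sigirr, a receptor that dampens the pathway, had -0.38 with (GT)6 SWCNT (adjusted p = 0.0380), while DESeq2 called 0 brakes lower there. As a gauge of the response, the NF-kappa-B target genes Tnf and Nfkbia had log2 fold changes of 5.01 and 2.70 with LPS, 1.38 and 0.58 with (GT)6 SWCNT, 0.94 and 0.29 with COOH SWCNT, and -0.62 and -0.44 with DiBASC2, all called.

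**Figure D5:**
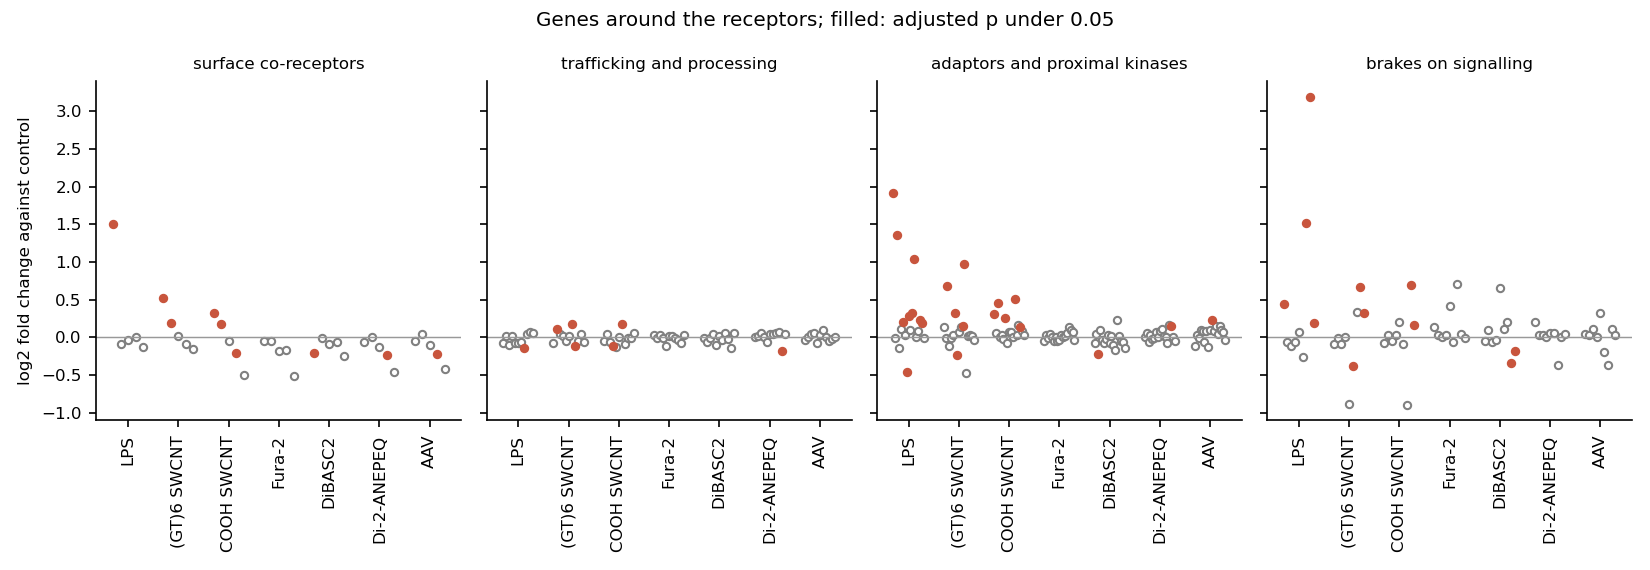
Log2 fold changes against control of the tested genes of the 4 lists around the receptors, with a panel per list and a column per treatment; filled points passed an adjusted p of 0.05. Tnfaip3 at 3.19, Ikbke at 1.92 and Cd14 at 1.51 stand out with LPS, and the trafficking genes lie close to 0.

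Tlr5, the flagellin receptor, was not among the 9 genes and was set beside them from the list of other receptors. It had 5.60, 3.47 and 3.79 CPM with LPS and 5.30, 4.94 and 6.62 CPM with (GT)6 SWCNT, below the control libraries in both. Its log2 fold changes were -1.16 ± 0.14 (adjusted p = 1.42e-08) and -0.78 ± 0.13 (1.90e-05). With COOH SWCNT it had 10.1, 8.52 and 8.07 CPM and was not called, and the difference between the nanotubes was -0.69 ± 0.13 (adjusted p = 0.000164).

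The genes with the most similar pattern were sought for the 4 receptors called in some treatment at a log2 change of 0.5 or more in either direction, among 9486 genes with a mean of at least 5 CPM. Likeness was the root-mean-square difference between the 8 group means of log2 CPM, each gene centred on its own mean. For Tlr2, whose group means spanned 1.85, the closest were Tarm1 (0.093) and Marcksl1 (0.097). For Tlr4, spanning 0.93, they were Zfp961 (0.048) and Apobec1 (0.053), and for Tlr13, spanning 0.75, Rin1 (0.048) and Tal1 (0.052). For Tlr8, spanning 1.83, even the closest genes, S1pr1 (0.37) and Pik3ip1 (0.40), differed several times more, at counts of 1 to 26 per library for Tlr8. These are descriptions over 8 groups that share the same libraries within each group.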

How the data were processed

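Poly-A RNA was measured in 24 libraries. The authors deposited raw read counts per Ensembl gene; per the submitters' processing notes, STAR 2.5.4b and GRCm38.p6 were used, and the counting tool, strand setting and annotation are not given in the sources used here. Sample titles gave the group and the replicate number; treatment labels of the DiBASC2 libraries carry differing trailing numbers and the table spells that dye differently, as other labels spell Di-2-ANEPEQ. Index numbers run in blocks by group, so library order and group cannot be told apart. Symbols, positions and lengths came from GENCODE M21, which matched 54809 of 54838 identifiers, 53947 with the version.

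The analysis used edgeR 4.0.16 in R 4.3.3: filterByExpr, TMM factors, one glmQLFit over all libraries with a mean per group (16 residual degrees of freedom) and 11 contrasts tested two-sided with glmQLFTest. A call needs an adjusted p under 0.05 (Benjamini-Hochberg over the 13116 genes of a contrast); the biological coefficient of variation was 4.12%. SE is the absolute log2 fold change over the square root of F, and intervals are 95%. CPM per kb uses the union of exons. All 9 receptors are named; of each pathway list, the called genes with the highest and lowest log2 fold change; Tnf and Nfkbia; and the 2 most alike genes. Values of Tollip and Cd180 in further treatments were added after they were seen. Members and lists were chosen with earlier results of these data known. Alternatives were scaling by upper-quartile factors or by DESeq2 size factors, a filter at a mean of 50 counts or none, the DESeq2 1.42.0 test, a fit of only the 2 groups, the replicate number as a block, removal of each library's trend over length and GC content (available for 99.9% of tested genes), both together, and leaving out each library. The code was checked on simulated counts. No replicate pair differed by as little as sampling noise.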

Additional observations from a re-analysis of the deposited data

How the results depend on the processing

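Of 458 alternative values of receptors called with the settings reported or in some alternative, 0 changed direction. Of these values, 412 kept their side of the threshold, 28 lost a call and 18 gained one. Over the alternatives, the number of receptors called was 3 to 5 with LPS, 3 to 4 with (GT)6 SWCNT and 2 to 3 with COOH SWCNT. Against LPS it was 3 to 5 for (GT)6 SWCNT and 3 to 4 for COOH SWCNT. The number of receptors called with DiBASC2 was 2 in place of 1 with the trend over length and GC content removed, with or without the replicate block. With Di-2-ANEPEQ it was 1 in place of 0 in a fit of only the 2 groups. Between the nanotubes it was 1 to 3 with a library left out, against 2, and 3 with the DESeq2 test or with no low-count filter. Between the dyes it was 1 in place of 2 with DESeq2 size factors, with no low-count filter and with the replicate block, and 1 to 2 with a library left out. The replicate numbers did not pair the libraries (same-numbered libraries of other groups correlated at -0.104 to 0.070 over 84 pairs, and 5 of 24 correlated best with their own number); the block also gave a call to Tlr8 with COOH SWCNT (adjusted p = 0.0303), and apart from that comparison and the one between the dyes, the number of calls was the same with it.

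The share of higher genes among all calls moved by over 10 points with upper-quartile factors: from 48.7% to 35.4% with LPS, 33.3% to 54.9% with DiBASC2, 36.7% to 26.3% with AAV, 44.6% to 57.5% and 47.9% to 62.5% for (GT)6 and COOH SWCNT against LPS, 55.6% to 44.4% between the nanotubes and 38.8% to 63.4% between the dyes. With length and GC trends removed it moved from 46.9% to 34.9% with COOH SWCNT, to 19.6% with DiBASC2, 51.8% with AAV, 70.4% between the nanotubes and 21.6% between the dyes. No scaling moved the median of all genes by more than 0.052 (log2). The causes were not tested. Depth limits Tlr3 (5 to 34 counts per library) and Tlr8 (1 to 26).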
